A study of Bos taurus with 6 samples.

Results

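The genes described here are those of the cytosolic ribosomal proteins, in isolated bovine primordial follicles (PMF). They were taken by symbol: RPS or RPL followed by a number and, in some, 1 or more closing letters or digits, together with RPSA, RPLP0, RPLP1 and RPLP2. Of 23704 genes with a name, 83 met this rule, 33 of the small (40S) subunit and 50 of the large (60S) subunit. Of these 83, 76 are the usual genes of a ribosomal protein and 7 are close paralogs of another member (RPL3L, RPL7L1, RPL10L, RPL22L1, RPL26L1, RPS27L and RPS4Y1). RPL41 and RPL39L were not analysed here. FAU, which also encodes a ribosomal protein, and the paralog RPL36AL fall outside the rule, and their values are given separately.

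T16 comprised 3 pools of PMF retrieved after 16 h of culture. T0 comprised 3 pools of PMF retrieved after collection. By the study's methods, follicles came from young Holstein Friesian dairy cows of an abattoir and were isolated mechanically from a single ovary of each animal, and isolated follicles were kept in a medium with insulin and FSH for a short recovery before they were frozen. The methods do not describe the cultured pools, the labels name no agent for the culture, and whether a given T16 pool and a given T0 pool came from the same animals is not stated. The libraries were made from total RNA after amplification of cDNA from whole follicles, oocyte and pre-granulosa cells together, so that fewer cells of a type and less RNA per cell cannot be told apart.

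Ribosomal proteins surround the ribosomal RNA of the small subunit, which decodes the mRNA, and of the large subunit, which joins the amino acids. Each ribosome holds 1 copy of most of them, and their mRNA carry a 5′ terminal oligopyrimidine (TOP) tract that couples their translation to mTOR signalling. The oocyte of a primordial follicle is arrested in meiosis, and ribosomes accumulate in it as it grows.

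The libraries held 25761986 to 36703016 estimated counts in T16 and 22174653 to 30212698 in T0. All 15 oocyte marker genes had counts in every library, and their summed TPM (transcript abundance scaled for length and depth) was 2113, 95.5 and 873 in T16 replicates 1, 2 and 3, and 573, 2373 and 3354 in T0 replicates 1, 2 and 3. The summed TPM of 13 granulosa cell markers was 957, 9129 and 2885 in the T16 pools and 9667, 4389 and 1393 in the T0 pools, in the same order, with FSHR at 0 in T16 replicate 3 and the others above 0 throughout. T16 replicate 2 and T0 replicate 1 were therefore the pools of their groups with the lowest oocyte and the highest granulosa marker levels. In the smooth muscle list, 5 to 7 of 7 markers had counts in T16 libraries and 7 of 7 in every T0 library, with summed TPM between 30.7 and 109 in T16 and between 115 and 441 in T0. Of 7 endothelial markers, 4 to 6 had counts in T16 and 4 to 7 in T0, and they summed to 15.0 to 39.0 TPM in T16 and to 22.5 to 392 TPM in T0. Stroma markers, 7 or 8 of 8 with counts in each library, summed to 276, 768 and 1734 TPM in T16 and to 2940, 1309.8 and 1184 TPM in T0. The part of these differences in the results below was not tested beyond the values given without a library or with the oocyte markers as a covariate.

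Ribosomal protein mRNA was abundant in all 6 libraries. The 83 genes together held 44723, 44437 and 70163 TPM in T16 replicates 1, 2 and 3, against 43711, 60892 and 54180 TPM in T0 replicates 1, 2 and 3. T16 replicate 3 was the highest library of all, the other T16 pools and T0 replicate 1 lay close to each other at the low end, and the groups overlapped. The mean was 53108 TPM in T16 (SD 14771, n = 3) and 52928 TPM in T0 (SD 8659, n = 3), a difference far smaller than the spread within either group. Without T16 replicate 3, the T16 mean was 44580 TPM. The oocyte marker sums of T16 replicates 1 and 2, whose ribosomal protein sums were nearly equal, were 2113 and 95.5 TPM, and the part of cell makeup in these sums was not tested.

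**Figure D1:**
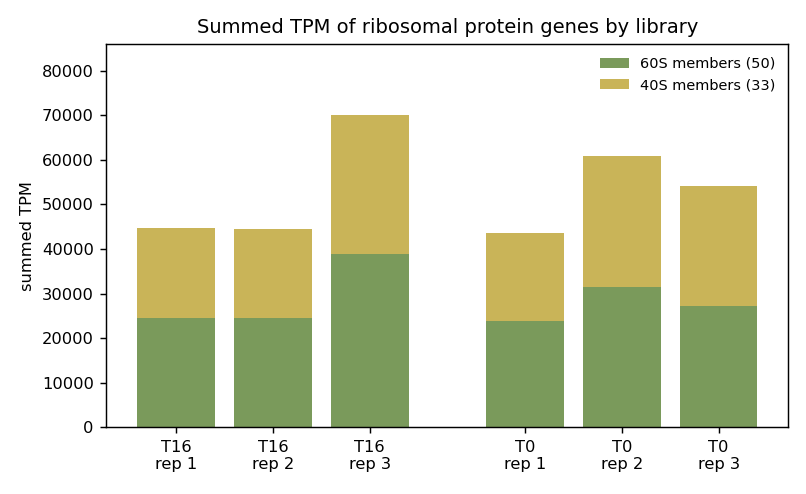
Summed TPM of the 83 ribosomal protein genes in each library, as bars from 0, with the 50 genes of the 60S subunit below and the 33 of the 40S subunit above. T16 replicate 3 reaches 70163 TPM, while the other 5 libraries lie between 43711 and 60892 TPM.

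The balance of the subunits differed between the groups in these libraries. The TPM of 40S genes divided by that of 60S genes was 0.822, 0.811 and 0.802 in T16, against 0.831, 0.935 and 0.988 in T0. Every T16 library lay below every T0 library, and T0 replicate 1 was the closest to T16. As a sum over chosen members this ratio was given no test, and the T0 libraries spread over a range wider than the gap between the groups.

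Most ribosomal protein genes were among the most abundant mRNA of the follicles. In mean TPM over the 6 libraries, 79 of the 83 were at 100 TPM or more, 11 were above 1000 TPM and their median was 544 TPM. Among all genes, 15 of the 100 highest and 67 of the 500 highest were ribosomal protein genes. Within this set the highest library was 2.09 times the lowest in the median gene. It was under 2 times in 37 genes, 2 to 4 times in 43 and 4 times or more in RPL22 and RPS4Y1, with RPL3L at 0 in some libraries. RPL10A was the most even, at 343, 304 and 360.3 TPM in T16 and 345, 414 and 418 TPM in T0. The SD of log2(TPM + 1) within a group had a median of 0.36 over the 79 genes at 100 TPM or more, and of 0.44 over 1912 other genes at that level.

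RPS27A was the highest member. Its mRNA encodes ubiquitin fused to the 40S protein, and it had 2253, 1704 and 3179 TPM in T16 and 1496, 2689 and 3009 TPM in T0. The second was RPS25, a 40S protein of the head of the subunit, with 1672, 1574 and 2372 TPM in T16 and 1609, 3065 and 2745 TPM in T0. RPS27, a 40S protein with a zinc finger, had 749.5, 652 and 1551 TPM in T16 and 936, 2361 and 2455 TPM in T0. In these 3 genes the groups overlapped, T16 replicate 3 was the highest T16 pool and T0 replicate 1 the lowest T0 pool. As T16 and T0 levels ranged over each other, the order of the first 2 genes did not exceed their spread.

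RPL22 was the lowest of the usual ribosomal protein genes, followed by RPL7 and RPS26. RPL22, an RNA-binding protein of the 60S surface, had 25.5, 21.4 and 53.9 TPM in T16 and 10.1, 19.6 and 7.73 TPM in T0, so that the T16 pools lay above the T0 pools by a narrow margin. RPL7, a 60S protein, had 155, 215 and 237 TPM in T16 and 138, 143 and 148 TPM in T0, again with no overlap. RPS26, a 40S protein at the mRNA exit channel, overlapped between the groups, at 114, 189.8 and 257 TPM in T16 and 179, 219 and 156 TPM in T0.

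T16 was compared with T0 to ask whether 16 h of culture altered these levels. By edgeR's quasi-likelihood test with Benjamini-Hochberg adjustment over 14639 genes, none of the 82 ribosomal protein genes tested passed an adjusted p of 0.05, in a comparison in which 0.041% of all genes did (0.0342% higher and 0.00683% lower). At an unadjusted p under 0.05 there were 2 of 82, against 13.8% of all genes. DESeq2 called 2 of 82 higher in T16 (RPL7L1 and RPS4Y1, both paralogs) and none lower, with 7.02% of all genes called (4.06% higher and 2.96% lower). RPL3L, a paralog known from striated muscle in mouse, was not tested, since it had no count in T16 and 4, 2 and 0 counts in T0. The 76 usual genes were therefore below the threshold with either tool.

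Of the 82 genes, 58 had a fitted log2 fold change above 0 and 24 one below 0. Their median was 0.23, against −0.08 over all genes tested, of which 46.6% were above 0. Genes of a like level differed by effective length (the length over which a read can start). Other genes at 100 TPM or more had a median of −0.07 over the 264 under 600 nt and 0.25 over the 1661 longer ones. The medians of the members were 0.16 over the 60 under 600 nt and 0.35 over the 22 longer ones. For the 33 genes of the 40S subunit the median was 0.15 and for the 49 of the 60S subunit 0.33. The median was smaller without a filter on counts (0.14), with a minimum of 50 counts (0.11) and with length offsets (0.13), each time with 50 genes above 0, and it was 0.33 with the oocyte markers as a covariate, with 62 genes above 0. Leaving out T16 replicate 1 gave 0.35, T16 replicate 2 gave 0.39 and T0 replicate 3 gave 0.13. The sign rested on 1 library: without T16 replicate 3 it was −0.20, with 25 genes above 0, and the median of all genes was then −0.10.

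In 11 of 82 genes (13.4%) every T16 library was above every T0 library in TPM, which held for 11.5% of all genes. The reverse held for 1 gene (1.22%), against 11.6% of all genes. The 11 were RPL4, RPL6, RPL7, RPL7L1, RPL13, RPL22, RPL27, RPL30, RPS2, RPS4Y1 and RPS15A, and the 1 was RPSA. The share above was thus near that of all genes, and the share below was under it.

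**Figure D2:**
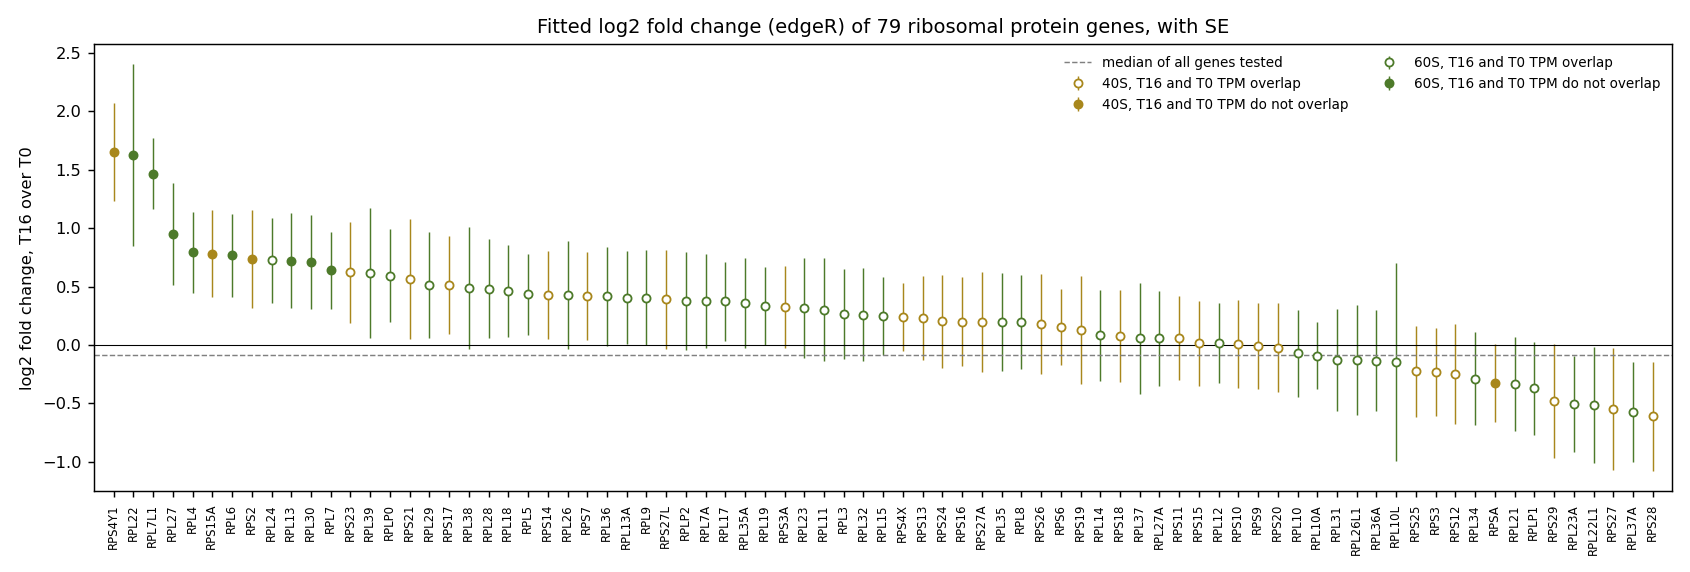
Fitted log2 fold change of T16 over T0 with its standard error for 79 of the 82 ribosomal protein genes tested, in falling order, with filled points where the TPM of the 3 T16 and the 3 T0 libraries do not overlap and a dashed line at the median of all genes tested (−0.08). RPS4Y1, RPL22 and RPL7L1 lie highest, between 1.47 and 1.65, and 12 points are filled.

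Among the genes with no overlap, RPL27, a 60S protein, had 948, 1041 and 1727 TPM in T16, against 804, 751 and 572 TPM in T0. All T16 pools were above all T0 pools, with replicate 3 the highest and T0 replicate 3 the lowest. Its log2 fold change was 0.95 (SE 0.43), with an adjusted p of 0.394 by edgeR. RPL4, a 60S protein that reaches into the exit tunnel, had 849, 740.4 and 971 TPM in T16, against 564, 553 and 495 TPM in T0. Here both groups were tight, and the log2 fold change was 0.79 (SE 0.35, adjusted p 0.379 by edgeR). The fold change of RPL22 was larger, 1.62, but so was its error (SE 0.78, adjusted p 0.421 by edgeR).

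RPSA was the single member that was lower in all T16 libraries. It is a 40S protein that also serves as the laminin receptor, and it had 774, 943 and 988 TPM in T16, against 1024, 1381 and 1360.2 TPM in T0. T16 replicate 3 and T0 replicate 1 nearly met. The log2 fold change was −0.32 (SE 0.33), with an adjusted p of 0.749 by edgeR, so the difference was no larger than its error.

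The P stalk of the 60S subunit recruits the elongation factors. RPLP0, its base, had 785, 880.0 and 1068 TPM in T16 and 799.9, 662 and 495 TPM in T0. RPLP1 had 818, 699 and 1177 TPM in T16 and 818, 1566 and 1579 TPM in T0. RPLP2, its partner, had 581, 541 and 1073 TPM in T16 and 571, 695 and 642 TPM in T0. Each of the 3 overlapped between the groups, and the fitted values pointed in different directions, at 0.59 (SE 0.40), −0.37 (SE 0.40) and 0.38 (SE 0.42) on the log2 scale. That of RPLP2 was −0.19 without T16 replicate 3.

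RPL5 and RPL11 form a particle with the 5S rRNA, and outside the ribosome they bind MDM2, the ligase that degrades p53. RPL5 had 389, 324 and 509 TPM in T16 and 294, 368 and 346 TPM in T0, and RPL11 had 239, 322 and 527 TPM in T16 and 368, 326 and 289 TPM in T0. Both overlapped, with T16 replicate 3 the highest library of each. RPS6, the 40S protein phosphorylated by S6 kinase downstream of mTOR, had 537, 548 and 675 TPM in T16 and 468, 662 and 632 TPM in T0. Its means were 587 TPM in T16 (SD 77.0, n = 3) and 587 TPM in T0 (SD 104, n = 3).

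RPS3, a 40S protein at the mRNA entry that also acts in DNA repair, had a log2 fold change of −0.23 (SE 0.38), and RPS12, a 40S protein of the beak, one of −0.25 (SE 0.43). RPL10, the 60S protein whose late joining readies the subunit for translation, was at −0.07 (SE 0.37). RPL13, RPL17, RPL24, RPL35 and RPL37 are 60S proteins, and theirs ran between 0.06 for RPL37 and 0.72 for RPL24 and for RPL13. The sign for RPL10, RPL35 and RPL37 was turned by leaving out 1 T16 library. Also overlapping were RPL39, a small protein lining the exit tunnel, at 0.62 (SE 0.55), and RPL3, next to the site of peptide bond formation, at 0.27 (SE 0.38). Of the 8 genes before these, RPL13 alone had no overlap between the groups, with 509, 590.0 and 860.4 TPM in T16 and 495, 459.8 and 352 TPM in T0, and its adjusted p was 0.505 by edgeR.

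T16 replicate 3 stood apart from the other T16 pools across nearly the whole set. It was above both of them in 75 of 83 genes, and it was the highest of the 6 libraries in 54. Set against the mean of the other T16 libraries on the log2 scale, the median difference was 0.67 over the 82 genes, with 81 of them higher, while the median over all genes tested was −0.19. Ribosomal protein mRNA are short, and the difference went with transcript length. It was 0.73 in the 60 genes with an effective length under 600 nt, and 0.41 in the 22 longer ones. Other genes at 100 TPM or more gave 0.60 over the 264 shorter ones and −0.04 over the 1661 longer ones. T16 replicate 2 against T16 replicate 1 gave −0.02 over the 82 genes. In T0, replicate 1 was below the other T0 pools in a like manner, with a median of −0.28 over the 82 genes and −0.37 over the 264 other short genes. What set the length pattern was not tested.

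**Figure D3:**
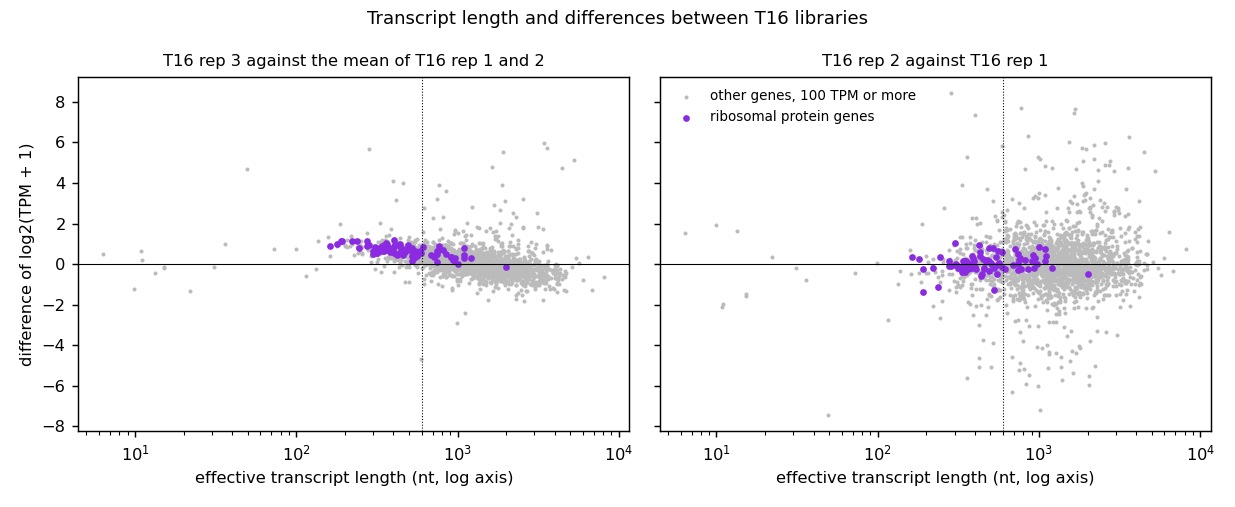
Difference in log2(TPM + 1) between T16 libraries against effective transcript length in nt (log axis, dotted line at 600 nt), for ribosomal protein genes and other genes at 100 TPM or more. On the left, T16 replicate 3 against the mean of replicates 1 and 2 is higher for short genes of either kind (medians 0.73 and 0.60). On the right, replicate 2 against replicate 1 has a median of −0.02 over the ribosomal protein genes. It is −0.05 over those under 600 nt and 0.17 over the longer ones. For the other genes it is −0.09 on either side of 600 nt.

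Dividing each gene by the summed ribosomal protein TPM of its library removes the shift that the set shares, and it adds the spread of that sum to all other genes. The share of all genes is therefore lower on this scale by construction, and nothing is read from its difference to the share of the set. On this scale every T16 library was above every T0 library in 17 of 82 genes (20.7%), against 6.66% of all genes, and below in 10 (12.2%), against 10.1% of all genes. Among the 10 were RPS28, RPS29, RPSA, RPL34, RPL36A, RPL37A and RPLP1. The lowest fitted log2 fold changes of all members were −0.61 (SE 0.47) for RPS28, a 40S protein at the mRNA exit, and −0.58 (SE 0.43) for RPL37A, a 60S protein with a zinc finger. RPS28 had 223, 281 and 471 TPM in T16 and 461, 729 and 496 TPM in T0. Only T16 replicate 3 reached into the T0 range. Neither gene passed the test, with adjusted p of 0.645 for RPS28 and 0.631 for RPL37A by edgeR.

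The paralogs held the members nearest to a call. RPL7L1 is related to RPL7, and in human cells its product acts in assembly of the large subunit. It had 483, 339.6 and 368 TPM in T16, against 141, 150.1 and 175 TPM in T0. The groups were far apart, and the lowest T16 library was above the highest T0 library by more than the range of T0. Its log2 fold change was 1.47 (SE 0.31), the smallest adjusted p of the set at 0.107 by edgeR. By DESeq2 it was 1.41 with an adjusted p of 0.000782.

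RPS4Y1 is a near-identical relative of RPS4X. In human a gene of this symbol is carried by the Y chromosome, while the RefSeq table places the bovine gene on an autosome. It had 668, 581 and 708 TPM in T16, against 309.8, 178 and 172 TPM in T0, with the T0 value of replicate 1 the closest to T16. The log2 fold change was 1.65 (SE 0.42, adjusted p 0.147 by edgeR), and by DESeq2 it was 1.61 with an adjusted p of 0.00842. RPS4X had 290.3, 241 and 288 TPM in T16 and 189, 279 and 300.4 TPM in T0, with overlap and a log2 fold change of 0.24 (SE 0.29). Reads that fit both sequences are divided between them by Salmon's model, so the split between these genes is uncertain.

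A ratio of paralog to parent within a library does not depend on how libraries are scaled to each other. It is still open to the length pattern above where the transcripts differ in length, as in RPL7L1 (2184 nt) and RPL7 (1090 nt). The part of length in these ratios was not tested. Of 9 pairs, 6 could be compared, and in 3 of them the ratios of the groups did not overlap. RPL7L1 over RPL7 was 3.11, 1.58 and 1.55 in T16, against 1.02, 1.05 and 1.18 in T0. RPS4Y1 over RPS4X was 2.30, 2.41 and 2.46 in T16, against 1.64, 0.638 and 0.571 in T0. RPS27L over RPS27, the parent with a product of almost the same sequence, was 0.658, 0.855 and 0.626 in T16, against 0.470, 0.242 and 0.303 in T0. All 3 ratios were higher in T16, by 0.87, 1.504 and 1.12 on the log2 scale. A two-sided exact permutation test gave p = 0.1 for each, the smallest that 3 against 3 libraries allow, and 0.2 after Benjamini-Hochberg adjustment over the 6 pairs.

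RPS27L, a target of p53 in human cells, had 493, 557 and 971 TPM in T16 and 439, 572 and 743 TPM in T0, so that its own levels overlapped. The fitted log2 fold change was 0.39 (SE 0.42) for RPS27L and −0.55 (SE 0.52) for RPS27. RPL22L1 over RPL22 was 1.45, 3.15 and 0.948 in T16, against 11.7, 3.02 and 7.21 in T0. In mouse the RPL22 protein represses the gene of its paralog. The pair pointed downwards, by −1.96 on the log2 scale, but T16 replicate 2 was above T0 replicate 2 and the exact permutation p was 0.2 (0.24 adjusted). RPL22L1 itself had 36.97, 67.6 and 51.1 TPM in T16 and 117, 59.2 and 55.8 TPM in T0. RPL26L1 over RPL26 differed by −0.45 on the log2 scale (exact permutation p = 0.7). RPL10L, which replaces RPL10 in the male germ line of mouse, stayed between 0.00711 and 0.00869 of RPL10 in every library, with 2.73 to 5.77 TPM.

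**Figure D4:**
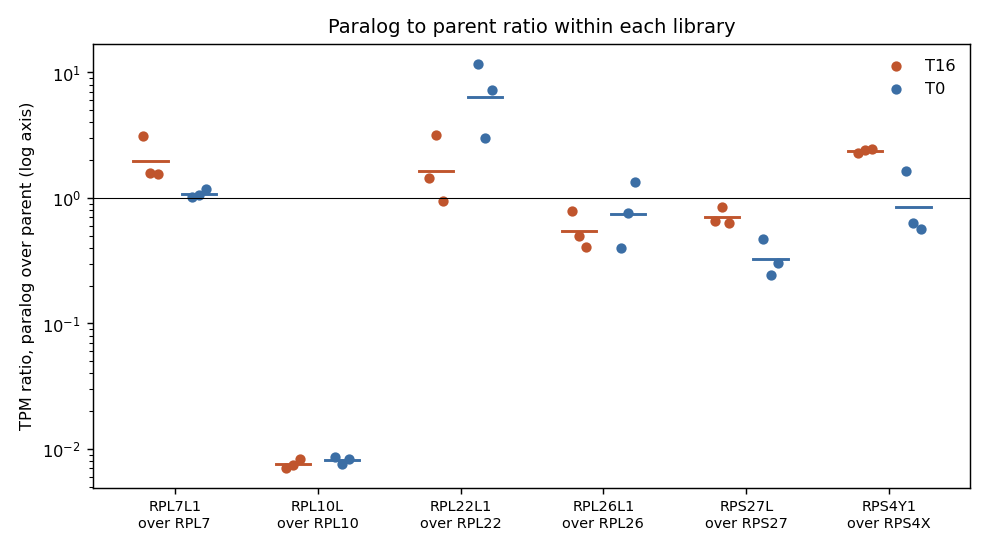
TPM of a paralog over that of its parent in each library (log axis), with T16 left of T0 in each pair and lines at the geometric mean. The 3 T16 points lie above the 3 T0 points for RPL7L1, RPS27L and RPS4Y1, where RPL7L1 over RPL7 reaches 3.11 in T16 and 1.18 in T0.

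The files also hold the transcripts of each gene. Of the 83 genes, 61 had 1 transcript and 22 had several, and in 20 of the 22 the same transcript led in every library. The share of the leading transcript in the TPM of its gene was lower in every T16 library than in every T0 library in 10 of the 22 (45.5%). The same held for 10.7% of 845 genes at 100 TPM or more with several transcripts. It was higher in T16 in 1 (RPS27L), with 7.81% of the 845 genes. In 9 of the 10 another annotated transcript was higher in all T16 libraries, and in each of the 9 it was longer than the leading one. The leading transcript was the shortest annotated one in most of the 22, so a rising transcript was longer almost by construction. Where a gene has a single other transcript, a fall of the leading share is also a rise of the other. Nothing is therefore read from these lengths. The 6 genes described next were chosen after these values were seen.

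RPS24, a 40S protein mutated in Diamond-Blackfan anaemia, has a transcript of 617 nt (XM_005226404.4) beside the leading one of 539 nt. The longer one made up 20.1%, 15.1% and 26.3% of the TPM of the gene in T16, against 5.83%, 4.92% and 4.52% in T0, with a wide gap between the groups. RPL31, a 60S protein at the exit of the tunnel, had 18.7%, 18.1% and 16.8% from XM_005212331.3 in T16, against 10.9%, 4.49% and 5.91% in T0. For RPSA, the transcript of 1148 nt (XM_005222370.2) made up 40.4%, 17.3% and 21.6% in T16, against 8.59%, 11.3% and 14.3% in T0. T16 replicate 1 was the highest in RPSA, and T0 replicate 3 came within a few percent of the lowest T16 library. RPL36, a 60S protein, had 11.1%, 3.72% and 4.43% from a transcript of 1550 nt annotated as non-coding (XR_003035408.1) in T16, against 0.439%, 0.768% and 0.769% in T0. For RPS27 the non-coding NR_024614.1 made up 4.33%, 2.93% and 2.77% in T16, against 0.206%, 0.166% and 0.485% in T0. RPS27A differed least, with 26.0%, 23.8% and 25.6% from XM_005212558.3 in T16 and 20.7%, 23.0% and 22.8% in T0. All T16 libraries were above all T0 libraries in the 6 genes, as the choice of genes required. These shares are estimates that divide reads between overlapping transcripts, and they were given no test.

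**Figure D5:**
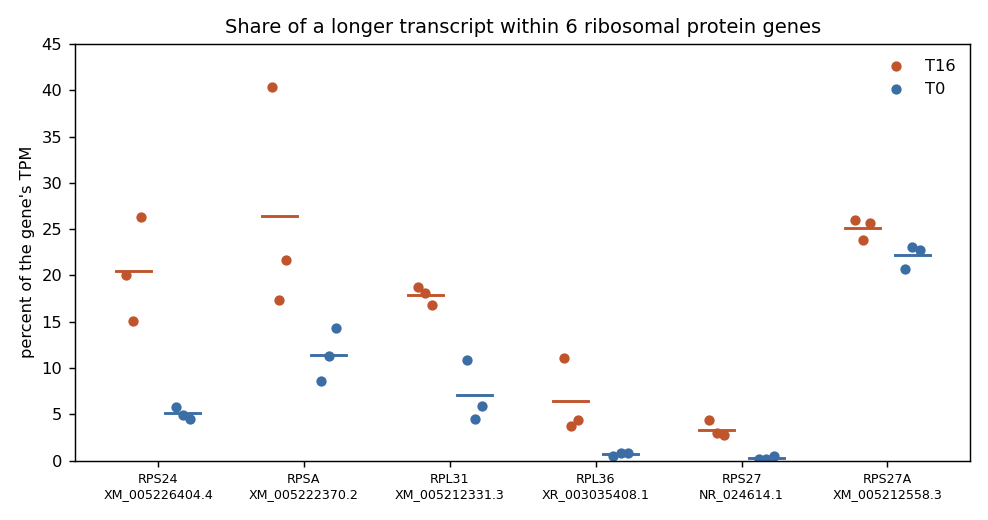
Percent of the TPM of a gene that came from 1 longer transcript, for 6 ribosomal protein genes, with T16 left of T0, points for single libraries and lines for means. All T16 points lie above all T0 points of the same gene, from 15.1% to 26.3% in T16 against 4.52% to 5.83% in T0 for RPS24.

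FAU encodes RPS30 as a fusion with a ubiquitin-like protein, so its symbol falls outside the rule. FAU had 1892, 821 and 2479 TPM in T16, against 286, 456 and 963 TPM in T0. T16 replicate 2 lay below T0 replicate 3, and the log2 fold change was 1.82 (SE 0.60, adjusted p 0.238 by edgeR), above that of every member. RPL36AL stayed under 5 TPM in all 6 libraries and was listed at 0 in T16 replicate 2.

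A list of 19 translation factors and other genes whose mRNA carry a TOP tract was set beside the ribosomal protein genes. No gene of it passed edgeR's test at an adjusted p of 0.05, with 4 of 19 at an unadjusted p under 0.05 (13.8% of all genes), and DESeq2 called 1, BTF3, higher (4.06% of all genes). BTF3, a subunit of the nascent polypeptide-associated complex, had 918, 734 and 922 TPM in T16, against 469.7, 423 and 407 TPM in T0. All T16 libraries were above all T0 libraries in 7 of the 19 (36.8%, against 11.5% of all genes) and below in none (11.6% of all genes). Their median log2 fold change was 0.43, against −0.08 over all genes tested. Over the 1661 other genes at 100 TPM or more with an effective length of at least 600 nt, it was 0.25. The median of the list was 0.33 without T16 replicate 3, so that its sign did not rest on that library. The summed TPM of the list was 8844, 8366 and 8672 in T16, against 6519.6, 6454 and 6685 in T0. The groups did not overlap in this sum, and T16 replicate 3 lay between the other T16 libraries.

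Chaperones of ribosomal proteins and regulators of their mRNA formed a list of 12. None passed edgeR's test, with 3 of 12 at an unadjusted p under 0.05 (13.8% of all genes), and DESeq2 called 3 higher (LTV1, GRWD1 and BCCIP), as it did 4.06% of all genes. LTV1, which escorts RPS3 into the 40S precursor, had 195, 104 and 89.9 TPM in T16, against 46.2, 32.0 and 20.5 TPM in T0 (log2 fold change 2.01, SE 0.47, adjusted p 0.131 by edgeR). GRWD1, the chaperone of RPL3, had 133, 140.0 and 137 TPM in T16, against 68.8, 35.9 and 28.2 TPM in T0. BCCIP, which serves RPL23, had 237, 249.5 and 233 TPM in T16, against 121, 87.6 and 77.7 TPM in T0. In these 3 genes the T16 libraries were above the T0 libraries with a clear gap, and T0 replicate 1 was the highest T0 pool. LARP1, which binds TOP mRNA, overlapped between the groups, at a log2 fold change of 0.91 (SE 0.56). The median of the list was 0.53, against −0.08 over all genes tested, and it was 0.51 without T16 replicate 3.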

How the data were processed

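RNA of bovine PMF was measured in 3 T16 and 3 T0 libraries. Per the study's methods, the authors trimmed reads with Trim Galore and fastp and mapped them with Salmon to the ARS-UCD1.3 transcriptome. The deposited values are estimated counts and TPM of each transcript, with its length and effective length. Counts on short mRNA depend on the effective length, for which TPM is scaled. Differences between libraries that went with length remained in TPM. Transcripts were named with a RefSeq table of ARS-UCD2.0, another assembly, so no coordinates are given. Of 76123 transcripts, 50205 matched, and 9.74% to 10.9% of a library's counts fell on the unmatched ones, which were left out. Counts and TPM were summed to genes, and the estimated counts were rounded.

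The 14639 genes that reached 10 counts in 3 libraries or more were tested for T16 against T0 with the quasi-likelihood test of edgeR 4.0.16 after TMM scaling (R 4.3.3), at an adjusted p below 0.05. DESeq2 1.42.0, its size factors, other count filters, length offsets, a replicate block and each library left out were the alternatives. Log2 TPM values used a pseudocount of 1. The labels call the pools biological replicates, but p-values measure the spread between these pools.

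The members and lists were chosen with earlier results of these data known. Genes named are those of known roles fixed in a list, the paralog pairs, members the paper names, the 3 highest and 3 lowest in mean TPM, and up to 5 in each direction with the largest fold change and no overlap. RPL6, RPL10A, RPL30, RPS2, RPS15A, RPS28 and RPL37A and the genes whose share of the summed TPM did not overlap were named after their values were seen. Values of a few genes were left out of the text and plots.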

Additional observations from a re-analysis of the deposited data

How the results depend on the processing

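The direction and the call of 20 of 34 named ribosomal protein genes, or their lack of one, were kept under 14 alternatives, with the exception that DESeq2 called RPL7L1 (1.41) and RPS4Y1 (1.61). Of all genes, edgeR called 5 higher and 1 lower in T16, and DESeq2 called 594 higher and 433 lower, including 2 ribosomal protein genes, both higher. Without a filter 4 genes were lower, with a minimum of 50 counts 2, and with the oocyte markers as a covariate, added after the data were seen, 9 were higher and 3 lower. With each library left out in turn, 0 to 2 genes were higher and 0 to 1 lower (351 to 1637 in a direction at an unadjusted p under 0.05). Without T16 replicate 2 and T0 replicate 1, also added after the data were seen, edgeR called 0 higher and 0 lower (1450 and 813 unadjusted). No ribosomal protein gene was called by edgeR under any of these settings. Across genes, deviations from the group means had correlations of −0.45, −0.12 and −0.0043 between same-numbered pools, and no pool matched best with its own number. Deviations from a mean of 3 pools are tied to each other, and the pools differed in cell markers. These correlations therefore cannot show whether same-numbered pools were paired. A fit with the replicate block called 0 genes (899 higher and 486 lower unadjusted), with a ribosomal protein median of 0.16.

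That median ranged from −0.20 to 0.39 over the left-out libraries, and it was negative without T16 replicate 3 alone. The log2 ratio of the summed TPM was 0.0049, and it ranged from −0.25 to 0.12. The 3 paralog ratios that did not overlap kept their direction with each library left out, which the lack of overlap fixes in advance. Their direction was the same on the CPM scale, which uses the same reads and is no separate check. Leaving out libraries turned the sign of the fold change of 14 named genes, with ranges of −0.38 to 0.092 for RPL10, −0.53 to 0.054 for RPL10L, −0.24 to 0.50 for RPL11, −0.73 to 0.065 for RPL22L1, −0.16 to 0.73 for RPL26, −0.42 to 0.19 for RPL26L1, −0.35 to 0.44 for RPL35, −0.61 to 0.019 for RPL36A, −0.63 to 0.31 for RPL37, −0.19 to 0.60 for RPLP2, −0.28 to 0.39 for RPS26, −0.24 to 0.43 for RPS27A, −0.15 to 0.57 for RPS27L and −0.10 to 0.25 for RPS6. RPL26L1 was at 0.34 with the oocyte covariate. RPL37, at 0.06, was at −0.0027 with DESeq2 and with its size factors, −0.041 without a filter, −0.067 with a minimum of 50 counts, −0.044 with length offsets and −0.12 with the replicate block. The cause of these turns was not tested. Adding near-identical copies to their parent genes was not run, since the gene table used here gives no description of them.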

Other observations

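The 78 protein genes of the mitochondrial ribosome, which translates the proteins encoded in the mitochondrion, had a median log2 fold change of 0.22 between T16 and T0, against 0.23 for the cytosolic set, and 0.03 without T16 replicate 3. Their summed TPM was 11362 in T16 (SD 1661, n = 3) and 10086 in T0 (SD 1392, n = 3). All T16 libraries were above all T0 libraries in 12 of the 78 (15.4%, against 11.5% of all genes) and below in 4 (5.13%, against 11.6% of all genes). None passed edgeR's test, with 8 of 78 at an unadjusted p under 0.05 (13.8% of all genes), and DESeq2 called 1, MRPL15, higher (log2 fold change 1.68 and adjusted p 0.122 by edgeR). MRPL17 and MRPS7 were also above T0 in every T16 library, at 1.13 and 0.98, and MRPL33 was below, at −0.51.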
